A study of Mus musculus with 6 samples.

Results

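Protein phosphatase 1 (PP1) is a serine and threonine phosphatase whose small catalytic subunit acts only in complexes with regulatory proteins. The genes described here are the 3 catalytic genes Ppp1ca, Ppp1cb and Ppp1cc and every symbol in the tables that begins with Ppp1r and a digit, chosen by name alone. They number 47 of 25165 symbols. Expression was measured by RNA sequencing of testis from 8-week-old C57BL/6 mice, in 3 libraries with KO titles and 3 with WT titles. The study removed the long non-coding RNA Teshl (NR_038002), and no source used here states how it was deleted. The genotype field of the labels contradicts the titles: it gives the libraries titled KO as wild type and those titled WT as NR_038002-/-. The libraries were grouped by title, and every difference is titled KO minus titled WT.

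The catalytic subunits remove phosphate from a very wide range of proteins, and specificity comes from the partner. Regulatory subunits block the active site (inhibitors), carry the enzyme to a place such as glycogen, myosin or chromatin, or choose the substrate. In the male germ line the main catalytic form is the gamma2 splice form of Ppp1cc. It is enriched in spermatids and sperm, where lower PP1 activity goes with the gain of motility, and male mice without Ppp1cc are sterile.

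The targeted gene, 1700027A15Rik, was at 0.385 FPKM (fragments scaled by transcript length and by the mapped fragments of the library) in titled KO replicate 1 and listed at 0 in replicates 2 and 3. It was at 1028, 989 and 1081 FPKM in the libraries titled WT, which fits the titles and contradicts the genotype field. Sums over all symbols lay between 393622 and 413604 FPKM. Judged from the steps between the lowest values, each library held about 28000000 to 39200000 fragments, so that 3 fragments on a 1 kb transcript equal 0.0765 to 0.107 FPKM. This floor covers counting error only. Correlations of log2 values were 0.989 to 0.993 within groups and 0.981 to 0.991 between them. The labels do not state whether each library is a different animal. The p-values therefore reflect only the scatter among these libraries, part of which may be technical. Spermatid markers showed the testis at work: all 7 of a fixed list were tested, and Prm1 alone, a protamine of the sperm nucleus, lay between 8058 and 10526 FPKM. The 5 epididymis markers summed to at most 1.08 FPKM in any library.

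Among the tested PP1 genes, the X-linked copies of the inhibitor-2 gene were the ones that changed. Of the 47 genes, 34 averaged 1 FPKM or above in either group and were tested. Ppp1r2-ps7 and Ppp1r2-ps9 were higher in KO-titled libraries, by 1.58 and 1.49 times, and 0 genes were lower (limma on log2(FPKM + 1), Benjamini-Hochberg adjusted p under 0.05 over all 12952 tested symbols). At unadjusted p under 0.05 there were 2 higher and 3 lower of the 34, while 14.3% of all tested symbols lay under that value in either direction. The share called among all tested symbols was 1.15% in either direction, 0.788% higher and 0.363% lower. The other 32 tested genes had log2 fold changes from -0.25 to 0.22. The median of the 34 was -0.03, beside -0.04 for all tested symbols. In 6 of the 34, or 17.6%, the libraries of the groups did not overlap, against 21.7% of all tested symbols. Of the 13 untested genes, 11 were above 0 in some library but below the filter and 2, Ppp1cc and Ppp1r15a, were listed at 0 in every library. In bulk tissue, fewer cells of a type and less RNA per cell cannot be told apart.

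**Figure D1:**
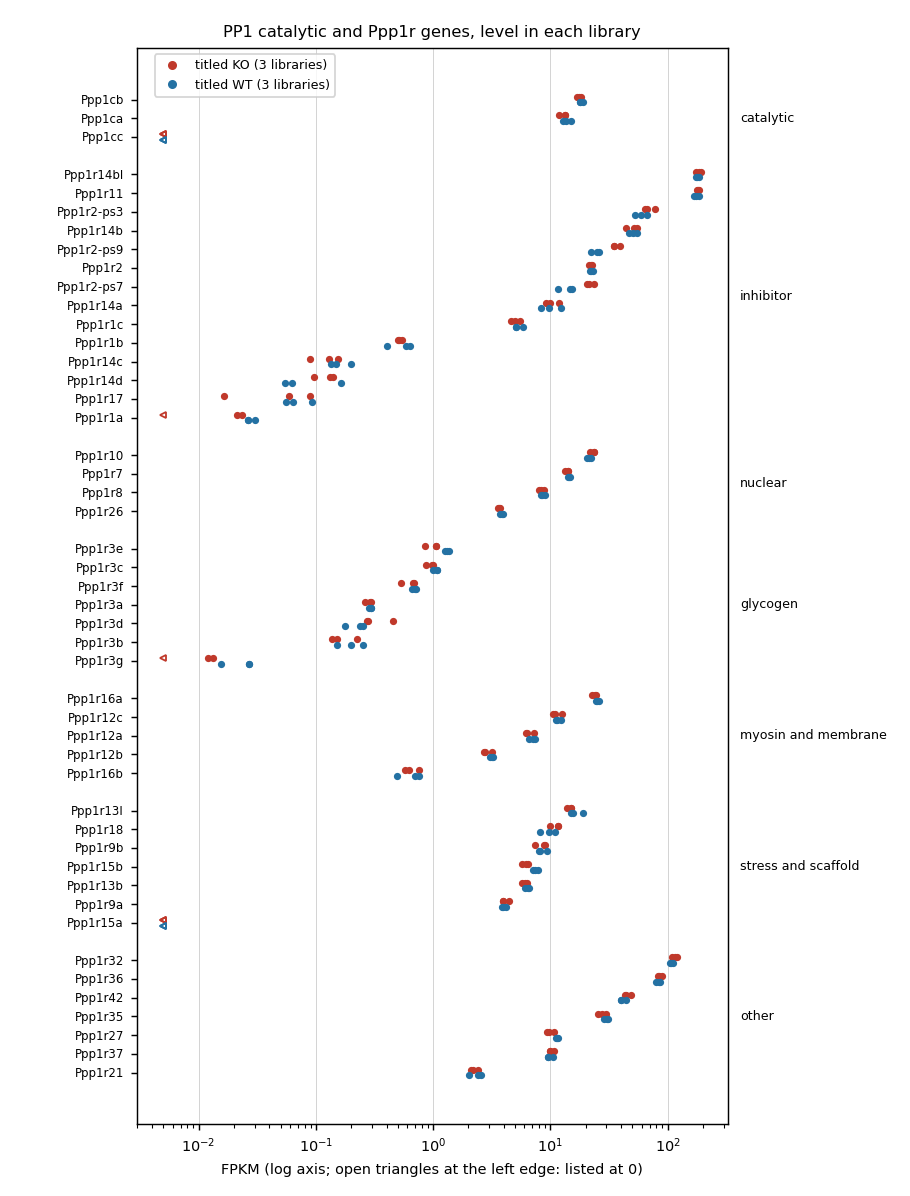
FPKM (log axis) of the 47 PP1 genes in the 3 libraries titled KO (red) and the 3 titled WT (blue), grouped by role, with open triangles for values listed at 0. Levels run from over 100 FPKM for Ppp1r14bl, Ppp1r11 and Ppp1r32 to under 0.1 FPKM, and red and blue separate most clearly at Ppp1r2-ps9 and Ppp1r2-ps7.

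The genes differed widely in level. By mean over all libraries 3 genes were at 100 FPKM or more, 19 at 10 to 100 FPKM, 11 at 1 to 10 FPKM and 14 below 1 FPKM. The highest, Ppp1r14bl, a relative of the inhibitor gene Ppp1r14b, lay between 173 and 193 FPKM. Ppp1r11, which encodes inhibitor-3 and lies in the t-complex, lay between 168 and 186 FPKM, so these neighbours in the order overlapped. Ppp1r32, at 105 to 121 FPKM, stood below both in every library, and Ppp1r36 followed at 79.8 to 88.7 FPKM without overlap. The range of Ppp1r2-ps3 (52.7 to 77.6 FPKM) overlapped that of Ppp1r14b (43.8 to 54.4 FPKM), though Ppp1r2-ps3 was the higher in every library. Ppp1r14b overlapped Ppp1r42 (40.1 to 49.0 FPKM). FPKM is scaled to transcript length, but the annotation used is not given, so the order between genes is a rough one. Of all 50-base windows of their transcripts, 58.2% in Ppp1r2-ps3 and 21.7% in Ppp1r14b also occur in other genes.

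Among the catalytic genes, Ppp1cb and Ppp1ca were measured at moderate levels and Ppp1cc was listed at 0. Ppp1cb, the beta or delta subunit used by myosin phosphatase, was at 16.9, 18.2 and 17.6 FPKM in KO-titled libraries and 17.9, 18.9 and 17.9 FPKM in WT-titled libraries. Ppp1ca, the alpha subunit, was at 13.2, 11.9 and 13.2 FPKM in KO-titled libraries and 13.5, 14.96 and 12.9 FPKM in WT-titled libraries. The groups overlapped for both genes. Exons of Ppp1ca overlap those of Rad9a on the opposite strand, which was at 1.68 to 2.14 FPKM. The log2 fold change was -0.05 for Ppp1cb (95% interval -0.18 to 0.07, limma adjusted p = 0.648) and -0.10 for Ppp1ca (-0.26 to 0.06, limma adjusted p = 0.518). The ratio of Ppp1cb to Ppp1ca was 1.38 ± 0.133 in KO-titled libraries and 1.33 ± 0.0608 in WT-titled libraries (SD, n = 3 each), with a two-sided p of 0.6 by exact permutation. In the sum of the 3 catalytic symbols Ppp1cb held 57.8% ± 2.30 in KO-titled libraries and 57.0% ± 1.12 in WT-titled libraries (SD, n = 3 each), a share that leaves out whatever Ppp1cc sequence is booked elsewhere.

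Ppp1cc was listed at 0 in all 6 libraries, and its near-identical copy Ppp1ccb held 448, 488 and 472 FPKM in KO-titled libraries and 482, 481 and 501 FPKM in WT-titled libraries. Ppp1ccb is a processed copy on chromosome 7 (119739926 to 119742226, GRCm38), annotated as a transcribed pseudogene by GENCODE M21 and as protein-coding by RefSeq. Ppp1cc lies on chromosome 5 (122158278 to 122175273). The best-matching transcripts aligned over 1435 bases with 0 mismatches and 3 gap bases, and the reading frame of 337 codons was identical from start to stop. Of the 50-base windows of Ppp1cc transcripts 40.0% also occur in other genes, nearly all in Ppp1ccb. The tables hold Ppp1ccb on 2 rows. In all 6 tables one of them stands directly after the row of Ppp1cc, among genes of chromosome 5, and held 327 to 352 FPKM. The other stands after Eri2, among genes of chromosome 7, and held 121 to 149 FPKM. Fragments from identical sequence cannot be assigned to one symbol, though the other windows of Ppp1cc occur in no other annotated gene. The annotation that named the rows is not given either, so Ppp1cc is reported only as listed at 0. The sum of both symbols, formed after the values were seen, was 469 ± 20.0 FPKM in KO-titled libraries and 488 ± 11.2 FPKM in WT-titled libraries (SD, n = 3 each), and the groups overlapped. Ppp1ccb itself had a log2 fold change of -0.06 (95% interval -0.17 to 0.05, limma adjusted p = 0.581). The sums of Ppp1ca and Ppp1cb were 30.1 to 30.8 FPKM in KO-titled libraries and 30.8 to 33.9 FPKM in WT-titled libraries.

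The near identity of the gamma symbols, and the distance of the alpha and beta genes, can be seen in bases 12 to 71 of the Ppp1cc reading frame, 5′ to 3′, taken from GENCODE M21 transcripts. Capitals mark bases that differ from Ppp1cc:
Ppp1cc: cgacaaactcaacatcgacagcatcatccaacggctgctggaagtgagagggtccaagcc
Ppp1ccb: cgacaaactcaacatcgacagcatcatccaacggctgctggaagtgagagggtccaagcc
Ppp1cb: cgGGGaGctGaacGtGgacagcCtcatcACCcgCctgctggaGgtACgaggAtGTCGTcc
Ppp1ca: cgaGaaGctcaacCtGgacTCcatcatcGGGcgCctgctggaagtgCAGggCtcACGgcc
Ppp1cb differs from Ppp1cc at 21 of these 60 bases and Ppp1ca at 17, and Ppp1ccb at 0. Over the aligned reading frames identity to Ppp1cc was 77.1% for Ppp1cb and 79.8% for Ppp1ca.

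**Figure D2:**
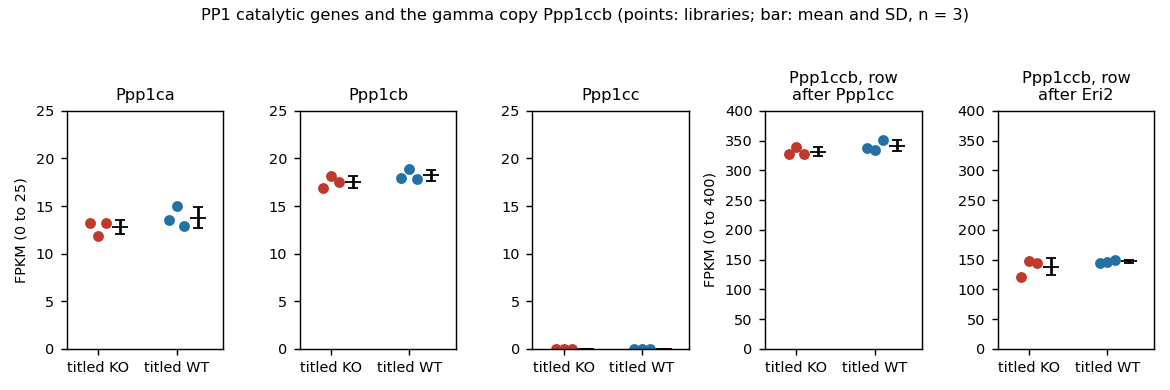
FPKM of the catalytic genes and of the 2 rows of Ppp1ccb in each library (points), with the mean and SD of 3 libraries (bars); the first 3 panels run from 0 to 25 FPKM and the others from 0 to 400 FPKM. Ppp1cc sits at 0 in every library while the Ppp1ccb row after it holds 327 to 352 FPKM.

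The inhibitors held the genes that changed. Inhibitor-2, encoded by Ppp1r2, forms a stable inactive complex with the catalytic subunit that is opened by phosphorylation of the inhibitor, in sperm by glycogen synthase kinase 3. The tables hold Ppp1r2 on chromosome 16 and 3 processed copies. Ppp1r2-ps3 lies on chromosome 19 (30538928 to 30539545, minus strand). Ppp1r2-ps7 lies on the X chromosome (22461632 to 22462394, plus strand), as does Ppp1r2-ps9 (15110585 to 15111466, minus strand). GENCODE M21 lists the X-linked copies as transcribed processed pseudogenes, and no other annotated gene overlaps either of them. Bases 127 to 186 of the Ppp1r2 reading frame, the first 60 that align without a gap in all 3 copies, show how far each copy has moved from its parent. Capitals mark differences from Ppp1r2:
Ppp1r2: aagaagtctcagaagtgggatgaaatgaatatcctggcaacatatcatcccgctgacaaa
Ppp1r2-ps3: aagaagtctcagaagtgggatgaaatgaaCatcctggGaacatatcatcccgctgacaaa
Ppp1r2-ps7: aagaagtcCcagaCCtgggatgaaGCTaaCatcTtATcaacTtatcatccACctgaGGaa
Ppp1r2-ps9: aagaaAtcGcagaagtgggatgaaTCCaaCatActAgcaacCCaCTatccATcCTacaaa
The differences number 2 in Ppp1r2-ps3, 15 in Ppp1r2-ps7 and 16 in Ppp1r2-ps9.

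The X-linked copies can be told from the parent gene by sequence, and the chromosome 19 copy only in part. Identity to the Ppp1r2 frame over the aligned bases was 98.5% for Ppp1r2-ps3, 80.1% for Ppp1r2-ps7 and 69.9% for Ppp1r2-ps9. The longest stretch shared without a difference was 105 bases between Ppp1r2 and Ppp1r2-ps3, 31 bases between Ppp1r2 and Ppp1r2-ps7, 15 bases between Ppp1r2 and Ppp1r2-ps9, and 11 bases between the X-linked copies themselves. Of all 50-base windows, 0% of those in either X-linked copy occur in another annotated gene, against 58.2% in Ppp1r2-ps3 and 9.11% in Ppp1r2. From the start codon that aligns with that of Ppp1r2, an open frame runs for 184 codons in Ppp1r2-ps7 and 182 codons in Ppp1r2-ps9, beside 206 in Ppp1r2. Whether these frames are translated cannot be seen in RNA levels.

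Ppp1r2-ps9 was at 34.9, 39.3 and 35.0 FPKM in KO-titled libraries and 25.1, 22.2 and 25.9 FPKM in WT-titled libraries. Every library titled KO lay above every library titled WT. The means were 36.4 ± 2.50 and 24.4 ± 1.94 FPKM (SD, n = 3 each), with a log2 fold change of 0.56 (SE 0.07, 95% interval 0.39 to 0.73, limma adjusted p = 0.00721). Ppp1r2-ps7 was at 20.7, 23.3 and 21.2 FPKM in KO-titled libraries and 14.7, 11.5 and 15.2 FPKM in WT-titled libraries, again without overlap. The means were 21.7 ± 1.41 and 13.8 ± 2.02 FPKM (SD, n = 3 each), with a log2 fold change of 0.63 (SE 0.10, 95% interval 0.40 to 0.86, limma adjusted p = 0.0235). The call of Ppp1r2-ps7 ended in 5 of 16 alternatives and that of Ppp1r2-ps9 in 1. Both ended with the replicate number as a block (limma adjusted p = 0.127 for Ppp1r2-ps7 and 0.0693 for Ppp1r2-ps9). That of Ppp1r2-ps7 was also lost without titled KO replicate 2 (limma adjusted p = 0.109), titled KO replicate 3 (0.102) or titled WT replicate 1 (0.0751), and with no filter on low values (0.0704). Its log2 fold change lay between 0.51 and 0.70 over the 16 alternatives (limma adjusted p from 0.00611 to 0.127), and that of Ppp1r2-ps9 between 0.50 and 0.60 (0.00273 to 0.0693).

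The parent gene and the autosomal copy did not pass. Ppp1r2 was at 21.3, 22.8 and 22.1 FPKM in KO-titled libraries and 21.6, 22.0 and 23.1 FPKM in WT-titled libraries, with a log2 fold change of -0.01 (95% interval -0.14 to 0.11, limma adjusted p = 0.933). Ppp1r2-ps3 was at 63.8, 77.6 and 66.7 FPKM in KO-titled libraries and 59.5, 52.7 and 66.1 FPKM in WT-titled libraries, and the groups overlapped (log2 fold change 0.22, 95% interval -0.0017 to 0.44, limma adjusted p = 0.353). As a ratio to Ppp1r2 in the same library, Ppp1r2-ps9 was at 1.64, 1.72 and 1.59 in KO-titled libraries and 1.16, 1.01 and 1.12 in WT-titled libraries. The same ratio for Ppp1r2-ps7 was 0.985 ± 0.0334 in KO-titled libraries and 0.620 ± 0.0860 in WT-titled libraries (SD, n = 3 each). The ratios of all 3 copies to Ppp1r2, and that of Ppp1r2-ps7 to Ppp1r2-ps9, had no overlap between groups. For each, the two-sided exact permutation p was 0.1, the smallest that 3 against 3 libraries allow, and 0.125 adjusted over the 5 ratios compared. The ratio of Ppp1r2-ps7 to Ppp1r2-ps9 was separated only narrowly. It was 0.592, 0.594 and 0.605 in KO-titled libraries and 0.585, 0.517 and 0.587 in WT-titled libraries. The 4 genes together summed to 141, 163 and 145 FPKM in KO-titled libraries and 121, 108 and 130 FPKM in WT-titled libraries.

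**Figure D3:**
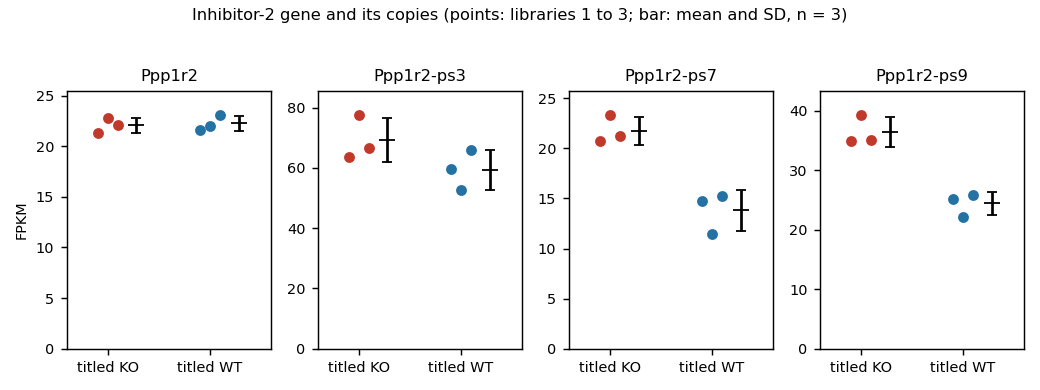
FPKM (axes from 0) of Ppp1r2 and its 3 copies in each library (points), with the mean and SD of 3 libraries (bars). For Ppp1r2-ps7 and Ppp1r2-ps9 the libraries titled KO lie wholly above those titled WT, while for Ppp1r2 and Ppp1r2-ps3 the groups overlap.

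Both called genes are X-linked, and X-linked genes were often higher in these libraries: 75 of 524 tested X genes, or 14.3%, were called higher. The remaining X-linked member, Ppp1r3f, was below the filter, at 0.526, 0.671 and 0.690 FPKM in KO-titled libraries and 0.710, 0.661 and 0.705 FPKM in WT-titled libraries, and 50.7% of its 50-base windows occur in genes that overlap it. No member lies on the Y chromosome. Going outward from Ppp1r2-ps9 in each direction, the first tested genes were H2al1n, a short histone H2A variant gene, 898924 bp away and higher (log2 fold change 0.86, limma adjusted p = 0.00254), and Cypt1, of a perinuclear theca family, 1411403 bp away (0.55, limma adjusted p = 0.0794). On either side of Ppp1r2-ps7 the nearest were Gm28269, 716535 bp away (0.54, limma adjusted p = 0.183), and Gm4907, 1420159 bp away and higher (0.55, limma adjusted p = 0.0276). The second tested gene on each side was also checked. Ddx3x and Maoa beside Ppp1r2-ps9 had log2 fold changes of -0.06 and 0.07 (limma adjusted p = 0.605 and 0.631). Beside Ppp1r2-ps7, Slc6a14, 719277 bp away on the side of Gm28269, had -0.19 (limma adjusted p = 0.376) and Gm4297 was higher (0.51, limma adjusted p = 0.0465).

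Spermatid markers had positive log2 fold changes in all 7 cases, though none passed. Of the 7 tested, 0 were called by limma and 4 had unadjusted p under 0.05, all 4 of them positive (limma). The median log2 fold change was 0.19, and the marker sum was 30308 to 32352 FPKM in KO-titled libraries and 25181 to 29026 FPKM in WT-titled libraries. Prm1, Prm2, Tnp1 and Tnp2 made up nearly all of that sum. Acrv1, Spaca1 and Izumo1 averaged only 163, 103 and 44.2 FPKM over all libraries. Per 1000 FPKM of that sum, Ppp1r2-ps9 was at 1.15, 1.21 and 1.11 FPKM in KO-titled libraries and 0.943, 0.882 and 0.892 FPKM in WT-titled libraries, so the ratio of means was 1.28 in place of 1.49. For Ppp1r2-ps7 the ratio of means was 1.36 in place of 1.58, also without overlap. The 5 tested spermatogonial markers had a median of -0.18, with 0 called by limma and 1 positive. All 6 listed summed to 36.1 to 41.6 FPKM in KO-titled libraries and 43.3 to 50.9 FPKM in WT-titled libraries. That sum was mostly Uchl1, with means of 22.7 and 29.8 FPKM (log2 fold change -0.38, limma adjusted p = 0.0864). The 6 spermatocyte markers had a median of -0.01. No defining spermatid, spermatocyte or spermatogonial marker was listed at 0 throughout. The part of these markers in the differences of the members was not tested beyond this scaling.

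The other inhibitors did not pass. Ppp1r11 was at 180, 186 and 176 FPKM in KO-titled libraries and 176, 168 and 185 FPKM in WT-titled libraries, with a log2 fold change of 0.04 (95% interval -0.08 to 0.16, limma adjusted p = 0.729). Ppp1r14bl was at 173, 193 and 185 FPKM in KO-titled libraries and 177, 174 and 185 FPKM in WT-titled libraries, with 0.04 (-0.09 to 0.16, limma adjusted p = 0.751). The groups overlapped for both. Ppp1r14b, which encodes the inhibitor PHI-1, was at 43.8, 51.1 and 54.4 FPKM in KO-titled libraries and 50.8, 46.8 and 54.4 FPKM in WT-titled libraries. Its log2 fold change of -0.03 (limma adjusted p = 0.884) was positive under upper-quartile and median-of-ratios scaling. Ppp1r14a, the smooth muscle inhibitor CPI-17, lay between 8.29 and 12.4 FPKM, and Ppp1r1c between 4.62 and 5.80 FPKM. The inhibitors below the filter are better known from other tissues. Ppp1r1b, which encodes DARPP-32 of dopamine-sensing neurons, was at 0.406 to 0.631 FPKM, Ppp1r14c at 0.0889 to 0.198 FPKM and Ppp1r14d at 0.0550 to 0.164 FPKM. Ppp1r17, the G-substrate of cerebellar Purkinje cells, lay between 0.0163 and 0.0922 FPKM. Ppp1r1a, inhibitor-1, was listed at 0 in titled KO replicate 2 and reached 0.0304 FPKM elsewhere, which is below the floor for a 1 kb transcript.

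No nuclear subunit passed, and the log2 fold changes of all 4 lay between -0.06 and 0.10. Ppp1r10, which encodes PNUTS of the transcription termination machinery, was at 21.8, 23.7 and 23.4 FPKM in KO-titled libraries and 20.7, 21.2 and 22.2 FPKM in WT-titled libraries (log2 fold change 0.10, 95% interval -0.03 to 0.23, limma adjusted p = 0.445). Ppp1r7, which encodes the ancient subunit SDS22, lay between 13.2 and 14.6 FPKM (log2 fold change -0.05). Ppp1r8, which encodes the splicing-associated NIPP1, lay between 7.97 and 9.05 FPKM (-0.03). Ppp1r26, a nucleolar subunit, was at 3.55 to 3.72 FPKM in KO-titled libraries and 3.74 to 3.95 FPKM in WT-titled libraries, without overlap but with a log2 fold change of only -0.06 (limma adjusted p = 0.650).

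Glycogen-targeting subunits, which carry PP1 to glycogen synthase and phosphorylase, were low: the 7 genes together summed to 3.03 to 3.90 FPKM in any library, and 2 were tested. Ppp1r3e was at 0.845, 1.06 and 1.05 FPKM in KO-titled libraries and 1.32, 1.35 and 1.25 FPKM in WT-titled libraries. Its groups did not overlap, and its log2 fold change of -0.22 did not pass (SE 0.07, limma adjusted p = 0.245). On this scale, with 1 added to each value, changes of such low genes are understated. Ppp1r3c, known as PTG, had -0.08 (limma adjusted p = 0.612). The untested Ppp1r3d was at 0.272, 0.280 and 0.457 FPKM in KO-titled libraries and 0.235, 0.251 and 0.176 FPKM in WT-titled libraries, without overlap. The muscle subunit gene Ppp1r3a lay between 0.265 and 0.296 FPKM and the liver subunit gene Ppp1r3b between 0.138 and 0.253 FPKM. Ppp1r3g reached 0.0271 FPKM and was listed at 0 in titled KO replicate 3. Of 17 listed enzymes of glycogen metabolism 12 were tested and 0 passed limma's threshold (2 lower and 0 higher at unadjusted p under 0.05), with a median of -0.10. The smallest p belonged to the phosphorylase gene Pygb (log2 fold change -0.23, limma adjusted p = 0.269).

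Myosin phosphatase joins Ppp1cb to a targeting subunit of the MYPT family. Ppp1r12a, which encodes MYPT1, was at 6.29, 6.15 and 7.25 FPKM in KO-titled libraries and 6.60, 7.09 and 7.32 FPKM in WT-titled libraries (log2 fold change -0.08, limma adjusted p = 0.597). Ppp1r12b and Ppp1r12c had -0.11 and -0.03 (limma adjusted p = 0.485 and 0.832). The membrane-bound relative Ppp1r16a was the most abundant of the group, at 24.2, 22.7 and 24.6 FPKM in KO-titled libraries and 24.96, 24.4 and 25.8 FPKM in WT-titled libraries (-0.07, limma adjusted p = 0.556). Ppp1r16b, known from endothelium as TIMAP, was untested at 0.493 to 0.761 FPKM. In the fixed list of the myosin light chain pathway 1 of 10 tested genes was called, beside 1.15% of all symbols. At unadjusted p under 0.05 there were 0 higher and 4 lower, beside 697 higher and 1152 lower of all 12952 tested symbols. No overlap between groups was seen in 5 of the 10, against 21.7% of all tested symbols. A positive log2 fold change was seen in 1 of the 10, against 4438 of the 12952. The median was -0.14, beside -0.04 for all tested symbols. Myl9, the regulatory light chain of smooth muscle, fell from 31.6, 33.9 and 32.5 FPKM in WT-titled libraries to 26.8, 26.2 and 27.4 FPKM in KO-titled libraries (log2 fold change -0.28, SE 0.05, limma adjusted p = 0.0475). That call ended without any one of the 6 libraries (limma adjusted p = 0.0785 to 0.173) and in 6 of the other 10 alternatives, the scalings by upper quartile (0.0545) and median of ratios (0.0589) among them. The list's next gene, Myl12b, had -0.16 (limma adjusted p = 0.280). Among the peritubular smooth muscle markers the median was -0.06 and 0 of 6 were called by limma (1 higher and 1 lower at unadjusted p under 0.05). Their sum was 168 to 172 FPKM in KO-titled libraries and 146 to 161 FPKM in WT-titled libraries. It was mostly Actg2, a smooth muscle actin gene, and so says little about the other markers. Actg2 was at 141, 146 and 140 FPKM in KO-titled libraries and 120, 115 and 132 FPKM in WT-titled libraries (log2 fold change 0.22, limma adjusted p = 0.151). Acta2, Myh11 and Cnn1 had log2 fold changes of -0.15, -0.13 and -0.24 (limma adjusted p = 0.548, 0.629 and 0.301). The remaining markers, Des and Tagln, had 0.02 and -0.0014 (limma adjusted p = 0.911 and 0.998). The part of these cells in the value of Myl9 was not tested.

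The eIF2alpha phosphatases bring PP1 to the translation factor that stress kinases phosphorylate. Ppp1r15b, the constitutive form known as CReP, had the smallest p among the genes not called. It was at 6.47, 5.76 and 6.15 FPKM in KO-titled libraries and 7.37, 7.86 and 7.14 FPKM in WT-titled libraries, and all 3 KO-titled values were lower than all 3 WT-titled ones. The log2 fold change was -0.25 (SE 0.07, 95% interval -0.40 to -0.10, unadjusted p = 0.00436, limma adjusted p = 0.146), and it passed in none of the 16 alternatives. Ppp1r15a, the stress-induced form known as GADD34, was listed at 0 in all 6 libraries. Its exons overlap those of Tulp2, a gene on the opposite strand that held 298 to 355 FPKM. Yet 0 of the 2787 distinct 50-base windows of Ppp1r15a transcripts occur in another annotated gene on either strand. No source used here states how fragments at the overlap were booked, and the cause of the listed 0 was not tested. Of 12 listed genes of the stress pathway 9 were tested and 0 passed limma's threshold, also 0 at unadjusted p under 0.05, with a median of -0.05. The smallest p belonged to the kinase gene Eif2ak1 (-0.15, limma adjusted p = 0.418) and the chaperone gene Hspa5 (-0.11, 0.435).

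Scaffold subunits did not pass either. Ppp1r13l, which encodes the p53 inhibitor iASPP, was at 14.9, 13.9 and 14.8 FPKM in KO-titled libraries and 15.6, 18.8 and 14.8 FPKM in WT-titled libraries, where replicate 2 stood highest (log2 fold change -0.16, limma adjusted p = 0.413). Its relative Ppp1r13b had -0.07. Ppp1r18, the actin-bound phostensin, was at 9.91, 11.6 and 11.7 FPKM in KO-titled libraries and 9.77, 8.09 and 10.9 FPKM in WT-titled libraries (0.19, limma adjusted p = 0.420). The synaptic scaffolds neurabin (Ppp1r9a) and spinophilin (Ppp1r9b) had 0.03 and -0.01 (limma adjusted p = 0.859 and 0.942).

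Among the remaining subunits several were abundant, and none passed. Ppp1r32 was at 108, 121 and 116 FPKM in KO-titled libraries and 105, 107 and 110 FPKM in WT-titled libraries (log2 fold change 0.10, 95% interval -0.03 to 0.22, limma adjusted p = 0.442). Ppp1r36 was at 81.9, 88.7 and 84.1 FPKM in KO-titled libraries and 84.1, 79.8 and 86.7 FPKM in WT-titled libraries (0.02, limma adjusted p = 0.852), and its sign changed without titled KO replicate 2 or titled WT replicate 2. Ppp1r42, the testis leucine-rich repeat protein TLRR, was at 44.2, 49.0 and 43.0 FPKM in KO-titled libraries and 40.1, 40.1 and 44.2 FPKM in WT-titled libraries (0.13, limma adjusted p = 0.403). Ppp1r35, a centriole protein gene, was at 25.3, 27.7 and 29.6 FPKM in KO-titled libraries and 30.5, 30.8 and 28.4 FPKM in WT-titled libraries (-0.12, limma adjusted p = 0.440). Ppp1r27 was at 10.6, 9.29 and 9.74 FPKM in KO-titled libraries and 11.5, 11.2 and 11.3 FPKM in WT-titled libraries, without overlap (-0.18, SE 0.06, limma adjusted p = 0.254). Ppp1r37 and Ppp1r21 had 0.04 and -0.03.

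**Figure D4:**
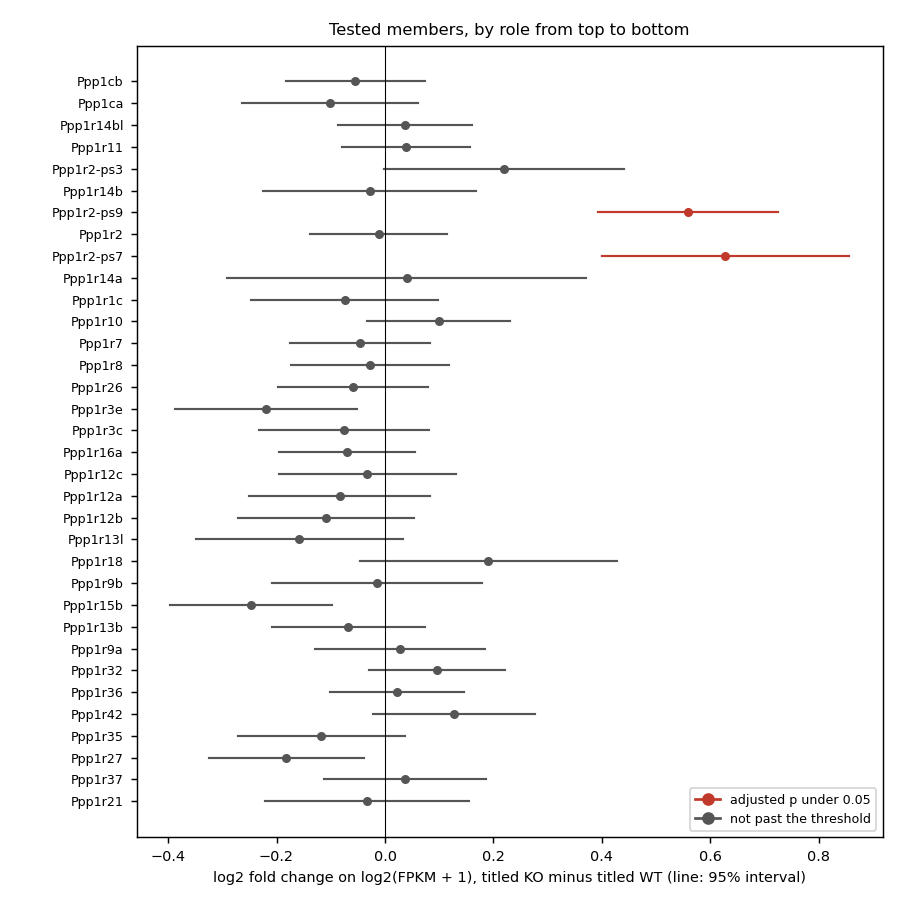
Log2 fold change on log2(FPKM + 1), titled KO minus titled WT, with its 95% interval for the 34 tested genes in order of role. Ppp1r2-ps7 and Ppp1r2-ps9 (red) stand at 0.63 and 0.56, and the other 32 lie between -0.25 and 0.22.

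Proteins that bind PP1 without a Ppp1r name were taken from a fixed list of 36, all of which were tested. Of the 36, 1 was called, beside 1.15% of all tested symbols, and its value is a listed zero. Shoc2, the scaffold that joins PP1 to Mras in the Ras pathway, was listed at 0 in each of the 3 KO-titled libraries. It was at 4.51, 5.72 and 4.59 FPKM in WT-titled libraries (limma adjusted p = 5.32e-07), and its locus overlaps Bbip1. Exact zeros also stand at genes that every cell uses, such as Rpl26, with a listed 0 in 4 libraries and 54.4 and 49.97 FPKM in titled WT replicates 1 and 2, so Shoc2 is reported only as listed. Its partner Mras was at 1.77, 1.73 and 1.66 FPKM in KO-titled libraries and 1.98, 2.24 and 2.203 FPKM in WT-titled libraries (log2 fold change -0.21, limma adjusted p = 0.234). Elfn2, a membrane protein gene of the same list, had 0.31 (limma adjusted p = 0.194). The list's median was -0.09, beside -0.04 for all tested symbols. At unadjusted p under 0.05 (limma) there were 1 higher and 4 lower, beside 697 higher and 1152 lower of all 12952 tested symbols. A positive log2 fold change was seen in 4 of the 36, against 4438 of the 12952. The groups did not overlap in 7 of the 36, against 21.7% of all tested symbols.

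Other phosphatases and the kinases around PP1 did not pass. Of 34 genes for PP2A, calcineurin and related phosphatases 30 were tested and 0 passed limma's threshold (1 higher and 4 lower at unadjusted p under 0.05), with a median of -0.05. The X-linked Ppef1, a phosphatase with calcium-binding motifs, had 0.34 (limma adjusted p = 0.102) and Ppp6c, the PP6 catalytic gene, -0.22 (0.145). Of 11 genes for kinases, kinase anchors and adaptors of sperm motility 0 passed (1 higher and 1 lower at unadjusted p under 0.05), with a median of -0.03. Akap4, the main anchor of the fibrous sheath, was at 549, 549 and 536 FPKM in KO-titled libraries and 511, 487 and 500 FPKM in WT-titled libraries (0.13, limma adjusted p = 0.247), and Prkar1a, a regulatory subunit of protein kinase A, had -0.18 (0.246).

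**Figure D5:**
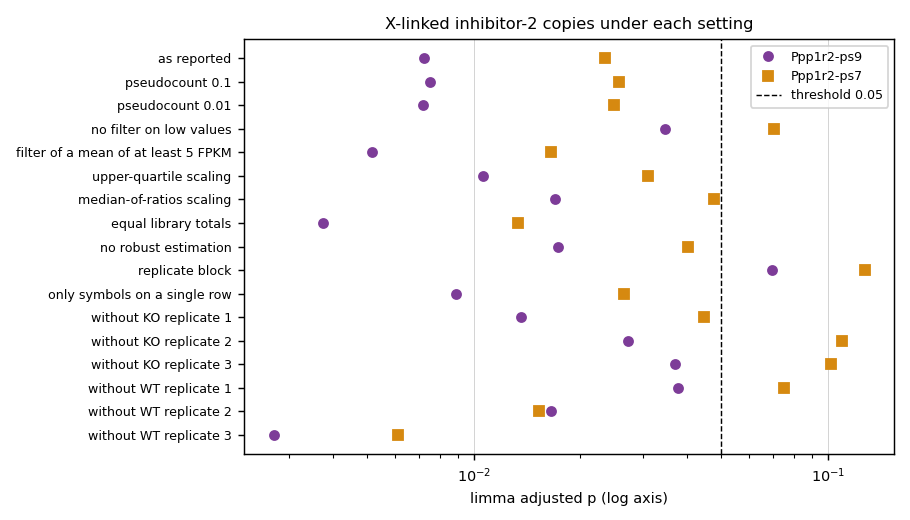
Limma adjusted p (log axis) of Ppp1r2-ps9 (circles) and Ppp1r2-ps7 (squares) as reported and under 16 other settings, with the threshold of 0.05 dashed. Ppp1r2-ps9 stays left of the line in 15 of the 16 and Ppp1r2-ps7 in 11.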

How the data were processed

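The deposited tables hold 1 value per row and library for 25910 rows. The values were taken as FPKM, normalized by the authors to length and depth, from the values themselves. HISAT2 and mm10 are named in the submitters' processing notes, and the libraries were directional per the labels' protocols. The sources used here give no quantifier, annotation or strand setting. Values were summed per symbol, which touched 333 symbols and 0 members. On log2(FPKM + 1), limma 3.58.1 (R 4.3.3, trend and robust options) tested symbols averaging 1 FPKM or above in either group, with Benjamini-Hochberg adjustment over all of them. The fit was tested on simulated data.

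All 47 members matched GENCODE M21 (GRCm38, the assembly of mm10), Ppp1r14bl through a RefSeq synonym. Transcripts were aligned with Biopython 1.88 and compared by 50-base windows with all annotated transcripts. Values in every library were given for catalytic genes, called genes, the 10 smallest p, the 10 highest means and X-linked members, and for others where useful. Of each pathway list, called genes and the 2 with the smallest p were named, apart from 1 that is not reported here; cell marker lists are given by counts, medians or sums. Members were taken by symbol and the lists were fixed by gene name, both with earlier results of these data known. Cell marker lists had 0 called genes for Leydig cells (median log2 fold change -0.14, 7 tested), Sertoli cells (-0.07, 7) and macrophages (-0.10, 5). The same held for endothelium (-0.22, 2 tested) and erythroid cells (-0.11, 4), beside a median of -0.04 for all tested symbols. The endothelial median rests on Pecam1, near the filter, and Cdh5. The erythroid one includes Hba-a1 at 0.42 and Hba-a2 at -0.55. Depth is an estimate from value spacing, and values below its floor are imprecise.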

Additional observations from a re-analysis of the deposited data

How the results depend on the processing

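Of 287 values of the 18 named members under the alternatives, 275 kept their direction and side of the threshold, 6 lost a call and 6 changed sign. Ppp1r14b (-0.03 as reported) turned positive with upper-quartile scaling (0.0017) and median-of-ratios scaling (0.0170), and lay between -0.0938 and 0.0586 with one library left out, positive without titled KO replicate 1 or titled WT replicate 3. Ppp1r36 lay between -0.0098 and 0.0496 with one library left out, negative without replicate 2 of either group. The median of the tested members was -0.03 as reported and 0.01 with median-of-ratios scaling. Members called numbered 1, Ppp1r2-ps9, with no filter on low values, and 1 to 2 with a library left out. All genes called numbered 149 as reported, 88 with no filter on low values and 73 to 233 with a library left out. They split into 102 higher and 47 lower, and 121 and 33 with upper-quartile scaling. The share of Ppp1cb among catalytic genes differed by 0.847 percentage points, and by -0.449 to 1.76 with a library left out.

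With the replicate number as a block, limma called 50 genes and 0 members, with 5 members at an unadjusted p under 0.05. Ppp1r2-ps9 had an adjusted p of 0.0693 there and Ppp1r2-ps7 0.127. Same-numbered libraries shared little: the correlations of their deviations were 0.0647, -0.129 and 0.0614, and not every library correlated best with its own number. These correlations gave no sign of pairing by number, but with 3 libraries per group they cannot exclude it. Depth limits genes under about 0.1 FPKM, and FPKM without counts gives no counting interval. Causes of these shifts were not tested.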
